A study of Mus musculus with 4 samples.

Results

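The regions described here are stretches of open chromatin that were called in all 4 ATAC-seq libraries of the series and whose peaks ranked higher in both T1 libraries than in both T2 libraries. Peaks of the 4 lists that shared at least 1 bp on chromosomes 1 to 19, X and Y were joined, which gave 77914 regions, and 44274 of these held a peak in every library and are called shared. In each library the −log10 q of every peak, the peak caller's significance, was turned into a rank percentile among all peaks of that library, with 100 for the strongest, and the best peak of a region was taken. The gap of a region is its lower T1 percentile minus its higher T2 percentile. Members were chosen by these −log10 q ranks: a region belongs to the set where the gap is at least 15 points, and 647 shared regions did, 1.46% of the 44274. The same rule read in the opposite direction found 2435 regions that ranked higher in T2, 5.50% of the shared regions.

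The libraries came from sorted MPP3 cells of the bone marrow of WT-iMOS mice at 3 months of age. The genotype is given as WTiMOS_T1 for 2 libraries and as WTiMOS_T2 for the other two. The series was made to ask about the intrinsic role of Bcl11a in these cells, but the meaning of T1 and T2, the alleles of each, the sort gates and the animals behind each replicate are not stated in the labels. Differences between replicates can thus be technical as well as biological. The T1 lists held 58469 and 54057 peaks and the T2 lists 66776 and 62718. Peak lists hold no read counts, so the depth of each library is unknown.

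MPP3 cells are multipotent progenitors of the bone marrow whose output is biased towards granulocytes and monocytes. Bcl11a encodes a zinc finger repressor that is needed for lymphoid development and is best known for silencing fetal globin genes in red cells. ATAC-seq cuts and tags DNA with a transposase wherever chromatin is open, so its peaks mark promoters, enhancers and other regulatory DNA. Regions far from promoters are in general the ones that differ most between blood cell types. The libraries were made from pools of cells, in which a site open in fewer cells and a site less open in every cell cannot be told apart.

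The labelled cell type was checked at 5 genes of MPP3 cells. Kit, Cd48, Cd34 and Flt3 each had a peak within 1 kb of a gene end in all 4 libraries, and Ly6a, which encodes Sca-1, had one in none. Of 7 genes that define other blood cells, 4 had such a peak in every library, among them Cd79a, Cd3e and Cd3d, and Ncr1 and Ly6g had none. Of 4 genes of endothelial or stromal cells, Pdgfrb and Col1a1 had one in every library, and Cdh5 and Lepr had none. A peak at a gene says that the DNA is open, not that the gene is expressed, and the part that other cells may have in the results below was not tested.

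Promoter DNA could be shown for members that lie at a start site. In the RefSeq promoter table (GRCm38.p6, the mm10 build of the peak lists), which holds 300 bases around each listed start, 38 of the 647 members overlapped a promoter window. The sequences below are the 250 bases before the start for 4 protein-coding genes whose start-site regions had the largest gaps, and for Elf4, an ETS family gene on the X chromosome. They are written 5′ to 3′ on the gene's strand in lower case, and capitals mark matches to any of 14 short motifs searched on both strands.
Ifitm6, chr7:141016893-141017142, minus strand: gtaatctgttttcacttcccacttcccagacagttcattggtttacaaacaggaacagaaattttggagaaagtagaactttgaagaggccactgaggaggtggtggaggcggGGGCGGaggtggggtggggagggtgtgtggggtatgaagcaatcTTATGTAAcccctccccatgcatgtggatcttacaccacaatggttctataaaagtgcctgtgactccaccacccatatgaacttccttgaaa
Hsd11b1, chr1:193242361-193242610, minus strand: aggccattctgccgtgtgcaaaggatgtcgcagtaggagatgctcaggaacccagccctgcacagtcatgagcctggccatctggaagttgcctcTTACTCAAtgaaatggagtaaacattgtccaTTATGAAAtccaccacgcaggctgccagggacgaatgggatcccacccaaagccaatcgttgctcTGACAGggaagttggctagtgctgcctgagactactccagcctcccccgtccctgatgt
Eps8l1, chr7:4460447-4460696, plus strand: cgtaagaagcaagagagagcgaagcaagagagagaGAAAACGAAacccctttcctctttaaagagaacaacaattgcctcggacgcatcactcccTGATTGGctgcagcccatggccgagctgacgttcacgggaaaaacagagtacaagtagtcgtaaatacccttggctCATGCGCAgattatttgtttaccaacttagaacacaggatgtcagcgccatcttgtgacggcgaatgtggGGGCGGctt
Fam131a, chr16:20694807-20695056, plus strand: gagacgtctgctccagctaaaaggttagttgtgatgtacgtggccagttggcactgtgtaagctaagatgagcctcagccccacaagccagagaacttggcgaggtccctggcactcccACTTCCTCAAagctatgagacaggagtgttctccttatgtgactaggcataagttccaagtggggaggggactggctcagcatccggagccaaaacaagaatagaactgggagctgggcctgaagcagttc
Elf4, chrX:48454320-48454569, minus strand: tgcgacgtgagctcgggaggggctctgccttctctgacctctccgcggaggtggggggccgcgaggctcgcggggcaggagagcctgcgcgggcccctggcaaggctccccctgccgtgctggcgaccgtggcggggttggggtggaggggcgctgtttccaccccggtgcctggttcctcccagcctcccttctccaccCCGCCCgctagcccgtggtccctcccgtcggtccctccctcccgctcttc

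The capitals in Ifitm6 mark a match to the CEBP motif TTNCNNAA, read on the reverse strand as TTATGTAA at 93 to 86 bases before the start, and a GC box, GGGCGG, further upstream. Hsd11b1 held 2 CEBP matches, TTACTCAA and TTATGAAA, and 1 TGACAG, the letters searched for HOX-MEIS sites. In Eps8l1 the marked runs are GAAAACGAA for the interferon regulatory factor motif GAAANNGAA, TGATTGG for the NF-Y motif CCAATCA on the reverse strand, CATGCGCA for the NRF1 motif TGCGCATG on the reverse strand, and a GC box. Fam131a held ACTTCCTC, the reverse strand of the ETS motif GAGGAAGT, and TTCCTCAA, a CEBP match, which overlap, and the marked run ACTTCCTCAA covers both. Elf4, whose shown sequence was 74.4% G and C, held only a GC box, read as CCGCCC. A match is a description of these letters, not evidence that a factor binds.

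The start-site regions differed in level as well as in gap. Hsd11b1 encodes the enzyme that turns inactive glucocorticoids into active ones, and its region was at the percentiles 77.6 and 75.7 in T1 and 40.8 and 23.3 in T2. At Eps8l1, a relative of the actin regulator Eps8, the percentiles were 54.1 and 50.7 in T1 and 18.7 and 6.02 in T2. The Fam131a region was at 61.7 and 66.8 in T1 and at 36.5 and 19.7 in T2. At these genes the T2 libraries lay farther apart than the T1 libraries. That both lay below the lower T1 library is set by the rule. The highest ranking of the 38 was the promoter region of Upf2, a factor of nonsense-mediated RNA decay, at 93.3 and 94.5 in T1 and at 73.3 and 74.1 in T2, a gap of 19.2 points. It was singled out after its values were seen.

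The CEBP motif TTNCNNAA was in the promoter windows of 18 of the 38 members at a start site (47.4%, Wilson 95% interval 32.5 to 62.7%, counting error only). The share was 30.8% of the 237 promoter regions that ranked higher in T2 (25.3 to 36.9%), 33.5% of all 10797 shared promoter regions, and 40.7% of all 32851 windows of the table. The motif is degenerate and common, and the interval of the members overlapped that of the regions ranking higher in T2. With only the 200 bases nearest the start, the shares were 31.6%, 19.4% and 21.3%. The GATA motif AGATAA was in 1 of the 38 (2.63%, 0.466 to 13.5%), against 10.1% for the regions ranking higher in T2 (6.90 to 14.6%) and 6.86% of all shared promoter regions. The RUNX motif TGTGGTT was in 0 of the 38 (Wilson upper limit 9.18%), against 4.59% of all shared promoter regions. The GC box was in 52.6% of the 38, in 49.8% of those ranking higher in T2 and in 67.6% of all shared promoter regions, whose median G and C content was 61.3% against 57.0% for the members. The MYB motif AACNGTTA was in 2 of the 38 (5.26%, 1.46 to 17.3%), against 2.95% of those ranking higher in T2 (1.44 to 5.97%) and 1.07% of all shared promoter regions (0.897 to 1.29%), a share that rests on 2 regions. For the motifs not named here, the interval of the members overlapped that of all shared promoter regions.

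The percentiles that follow chose the members, so they are given as a description and without a test. With 2 libraries against 2, no exact two-sided test of a single region could go below 0.333. The median member stood at the 60.4th and 58.1st percentile in the T1 libraries and at 27.5 and 25.7 in the T2 libraries. The gap ranged from 15.03 to 68.1 points with a median of 21.1. Gaps of 15 to 20 points made up 285 of the members and gaps of 50 points or more only 6. The members were mostly of middle rank in T1: 28 stood above the 80th percentile in both T1 libraries, and 42 stood below the 10th percentile in both T2 libraries. The median −log10 q was 31.8 and 26.0 in T1 and 12.5 and 11.0 in T2. Replicates of a member differed by a median of 4.28 points in T1 and 5.87 points in T2, against 4.91 and 4.44 over all shared regions. The regions ranking higher in T2 had the reverse order, with 5.79 points in T1 and 4.18 in T2.

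**Figure D1:**
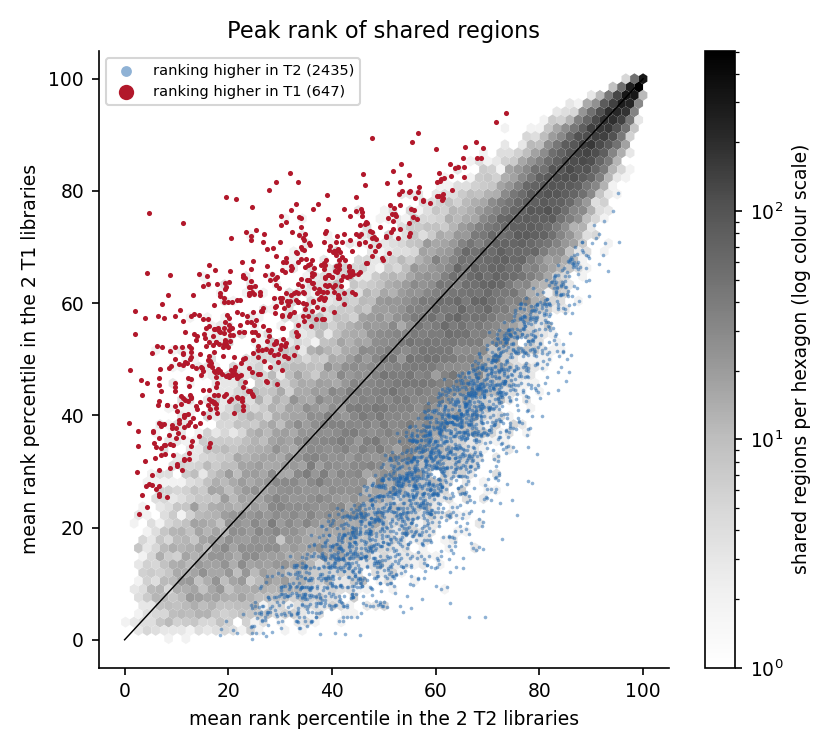
Each hexagon counts shared regions by their mean rank percentile in the 2 T2 libraries (x axis) and the 2 T1 libraries (y axis), both in percentile points, and the line marks equal rank. The 647 regions ranking higher in T1 (red) lie above the line with a median gap of 21.1 points, and the 2435 ranking higher in T2 (blue) lie below it.

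The other values of the peak lists come from the same contrast and are not independent of the rule. The peak caller's fold enrichment, the summit over its local background, was higher in both T1 libraries than in both T2 libraries for 646 of the 647 members, against 22.5% of all shared regions. Its median over the members was 10.4 and 10.5 in T1 and 6.13 and 6.26 in T2. Peaks were also wider in both T1 libraries for 356 members (55.0%, against 10.4% of all shared regions).

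The direction counts moved with how ranks were scaled, and the T2 lists were the longer ones. A shared region had a T1 minus T2 mean percentile with a median of −3.15 points, so under the rule the members stand out against a general tilt towards T2. That tilt depended on the scaling. The median was −0.0215 points with percentiles among the shared regions alone and 0.115 points with lists of equal length. Without a margin, both T1 percentiles exceeded both T2 percentiles in 6279 shared regions (14.2%), and the reverse held in 17986 (40.6%). When percentiles were taken among the shared regions alone, so that peaks outside them no longer enter the ranks, 1466 regions ranked higher in T1 and 1278 in T2. Of the 647 members, 615 (95.1%) were among those 1466, but they made up only 42.0% of the larger set. With each list shortened to the length of the shortest, strongest peaks first, only 402 (62.1%) still met the rule. With fold enrichment as the ranked value, 680 regions ranked higher in T1 and 2271 in T2, and 484 of the 647 (74.8%) were among them.

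The 24 regions with the largest gaps stood between 50.04 and 86.3 on the percentile scale in T1 and between 0.872 and 34.7 in T2. They lay in a gene in 9 cases, within 50 kb of a gene in 10 and farther from any gene in 5. Regions were assigned to the gene that holds them or to the nearest gene, which does not show that they regulate it. The largest gap, 68.1 points, belonged to chr17:45757911-45758448, 24073 bp from a predicted gene, with percentiles of 76.2 and 76.1 in T1 and 1.47 and 8.03 in T2. Its T2 peaks were thus among the weakest of their lists, with a −log10 q of 3.57 and 5.72, while its T1 peaks reached 56.2 and 47.1.

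The assigned genes of the 24 regions have varied roles. A region inside Pag1, a membrane adaptor that recruits the inhibitory kinase Csk to Src family kinases, was at 65.3 and 65.3 in T1 and at 2.47 and 6.02 in T2 (chr3:9725210-9725989). Dock8 encodes an exchange factor that activates the small GTPase Cdc42 in moving leukocytes, and a region inside it was at 76.7 and 71.9 in T1 and at 13.3 and 9.29 in T2 (chr19:25123100-25123718). The T1 replicates were close to each other at both genes, while their distance from T2 is what placed these regions among the 24. A second Dock8 region, chr19:25072450-25072975, was a member with a gap of 39.0 points, while 1 other Dock8 region ranked higher in T2. In Hpcal1, of the neuronal calcium sensor family, a region had percentiles of 79.8 and 77.8 in T1 and 21.1 and 17.9 in T2. Sh3rf1 encodes a scaffold of the JNK pathway, and its region was at 64.4 and 69.2 in T1 and at 16.3 and 16.1 in T2.

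Other regions of the 24 were at Aif1, Ifitm6, Xcr1 and Pias1. Aif1, which encodes the macrophage calcium-binding protein IBA1, held a region at 63.1 and 59.7 in T1 and at 8.65 and 8.07 in T2 (chr17:35172434-35173572). The region over the start site of Ifitm6, a myeloid member of the interferon-induced transmembrane family, was at 73.2 and 83.8 in T1 and at 19.5 and 23.3 in T2. Its promoter is the first of the sequences shown above. Xcr1 encodes a chemokine receptor of cross-presenting dendritic cells. A region 7238 bp from its end was at 64.9 and 65.4 in T1 and at 11.5 and 17.4 in T2 (chr9:123869267-123869761), and no other region assigned to Xcr1 was shared. Pias1, a SUMO ligase that restrains STAT signalling, held a region at 50.04 and 58.9 in T1 and at 0.872 and 3.21 in T2. In all of these, the lower T1 library was at least 46.8 points above the higher T2 library.

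Slc35c1 carries GDP-fucose into the Golgi, where selectin ligands are made, and a region 23090 bp from its end was at 52.8 and 51.9 in T1 and at 8.20 and 4.44 in T2. Ing3, a subunit of the NuA4/TIP60 acetyltransferase complex, held one at 70.1 and 72.6 in T1 and at 26.7 and 22.04 in T2. A region 23145 bp from the end of Bag3, a co-chaperone of HSP70, was at 77.5 and 73.6 in T1 and at 30.9 and 29.3 in T2. The region 702 bp from the listed start of Nat9, inside Tmem104, was at 67.3 and 62.7 in T1 and at 3.66 and 13.9 in T2. Regions at Fam114a1, Lrig2 and Bcas1 had gaps of 47.0, 46.3 and 42.7 points. The region near Zfp239 had a gap of 45.9 points by −log10 q but only 5.78 points when ranked by fold enrichment, the only one of the 24 to drop below 15 points under that ranking. The gaps at F10 (27.4), Tmem104 (25.5), Slc35c1 (21.7), Ing3 (21.0) and Bcas1 (18.6) and that of chr5:118377452-118377836 (19.1), which has no gene within 50 kb, were also over 1.5 times smaller by fold enrichment. Among the 5 regions with no gene within 50 kb, chr3:10087256-10088141 had the largest gap, 56.0 points, and its T1 and T2 summits lay 221 bp apart, so the strongest points of the 2 groups of peaks were not at the same site.

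**Figure D2:**
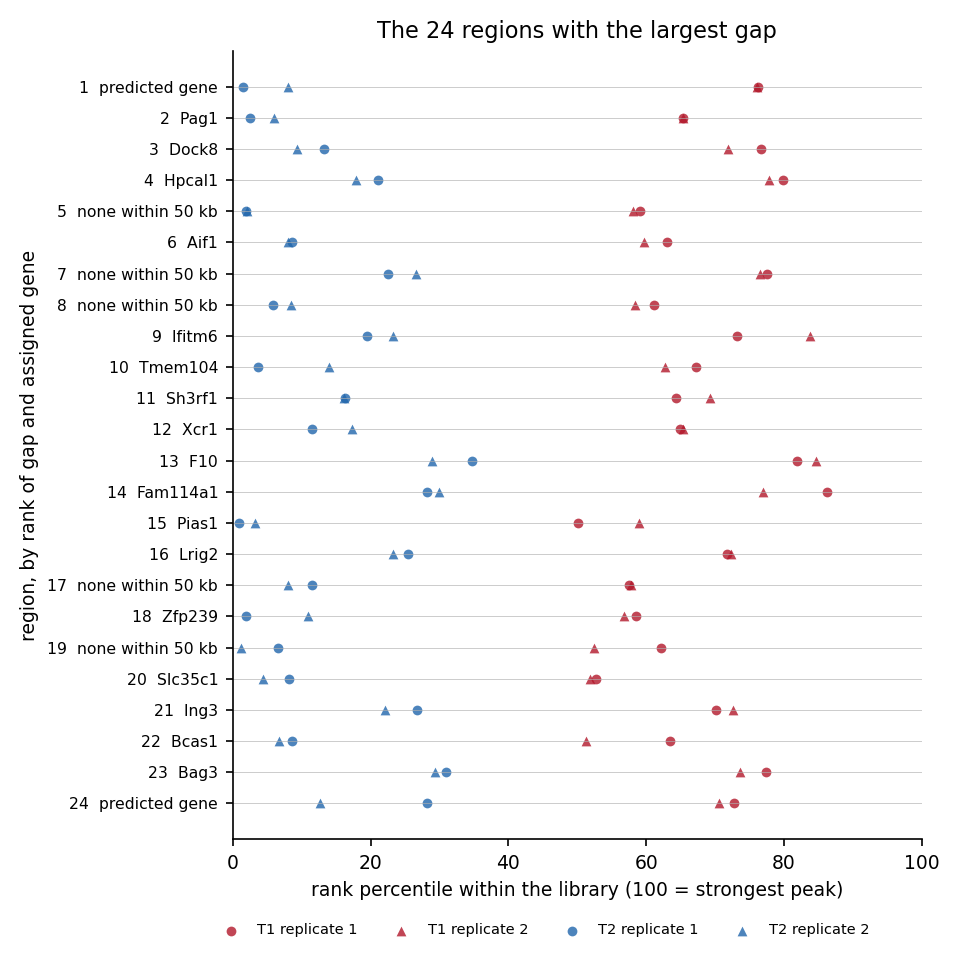
The points give the rank percentile (x axis, 100 for the strongest peak) in each of the 4 libraries for the 24 regions with the largest gap, listed by gap and assigned gene on the y axis. In each of them both T1 libraries (red) lie at 50.04 or above and both T2 libraries (blue) at 34.7 or below.

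Coagulation factor X, encoded by F10, lies next to factor VII on chromosome 8 and is a serine protease of the clotting cascade. The member 321 bp from the F10 start, chr8:13036209-13036987, stood at 81.9 and 84.7 in T1 and at 34.7 and 28.9 in T2. The surrounding stretch, chr8:12711682-13075536, was looked at after these values were seen. It held 25 regions, of which 7 were shared, 3 were members and 0 ranked higher in T2 by the rule. Over all shared regions these shares were 1.46% and 5.50%, but this stretch was picked for its values. Without a margin, both T1 were above both T2 in 4 of its 7 shared regions, members included, and the reverse held in 1, against 14.2% and 40.6%. The other members were in Mcf2l, which encodes a guanine nucleotide exchange factor, at 73.1 and 71.3 in T1 and 37.2 and 29.96 in T2, and at the start of Atp11a, a phospholipid flippase, at 65.8 and 64.7 in T1 and 43.9 and 42.9 in T2. The stretch also held 7 regions called in both T1 libraries and neither T2 library, here called T1-only, and 1 region called in both T2 libraries and neither T1 library. Such regions made up 2.33% and 6.88% of all 77914 regions. A further 10 were called in other combinations of libraries, some in a single T1 or a single T2 library. The strongest of the T1-only regions, chr8:12983864-12984505 in Mcf2l, stood at the 79.8th and 78.2nd percentile. In between, a shared region of Mcf2l, chr8:12976355-12977846, was at 71.4 and 77.6 in T1 and at 65.5 and 72.7 in T2, so the difference was not common to the whole stretch.

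**Figure D3:**
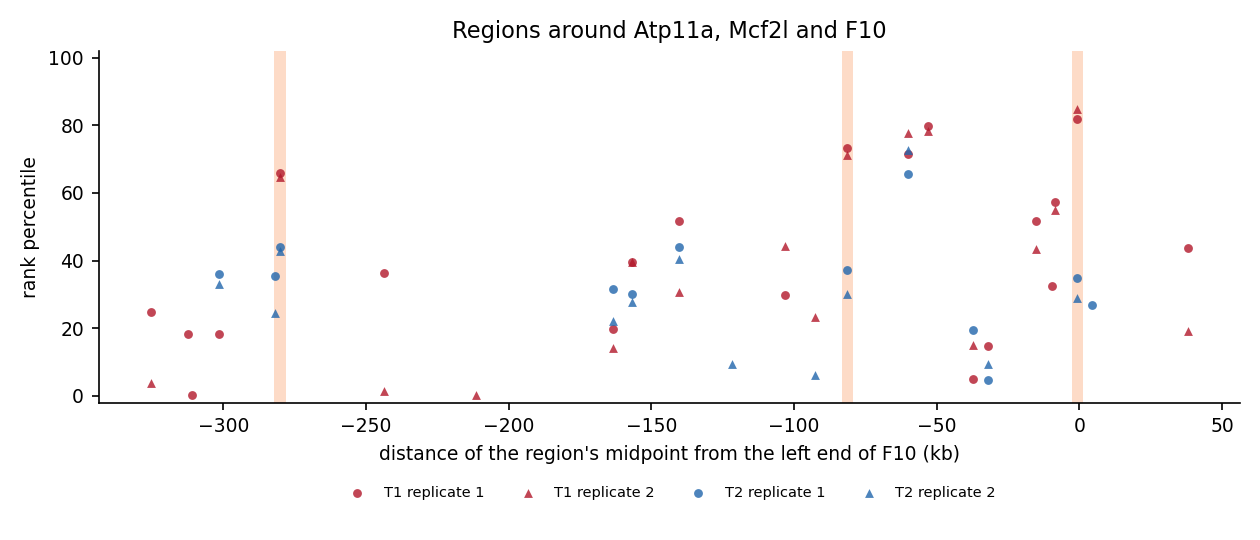
Rank percentile (y axis) of every region in the stretch around Atp11a, Mcf2l and F10, by the distance of its midpoint from the left end of F10 in kb (x axis), with a point for each library in which a peak was called. Shaded bands mark the 3 members, and points in red alone are regions called in T1 libraries only.

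Genes of progenitors, of blood lineages and of other cells of the marrow were grouped in 20 lists. Their genes held 29 of the 647 members, at 27 genes, and 13 of the 20 lists held at least 1. Each count below is to be read against 1.46% of all shared regions, and lists share genes. The members per list were few and no test of a list was made.

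Integrins, adhesion and migration had 7 members among 103 shared regions (6.80%), at 5 of 22 genes, and 4 regions ranking higher in T2 (3.88%, against 5.50% overall). The list's median T1 minus T2 difference was −1.09 points, against −3.15 over all shared regions. Itgb3, the integrin β3 chain of platelets, had a region at 66.3 and 62.9 in T1 and at 30.4 and 28.4 in T2, and 1 other Itgb3 region ranked higher in T2. S1pr1, the receptor by which leukocytes leave tissues along sphingosine 1-phosphate, had 2 members. The first, chr3:115729180-115729668, was at 38.9 and 46.2 in T1 and at 7.33 and 6.02 in T2, and the second, chr3:115762782-115763514, was at 35.1 and 42.3 in T1 and at 11.2 and 2.09 in T2. They lay 14125 and 47727 bp from a gene end, and of all 10 shared regions at S1pr1, members included, 4 had both T1 above both T2 and 4 the reverse, against 14.2% and 40.6% of all shared regions.

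Cxcr4, the receptor for CXCL12 that keeps progenitors in the marrow, also had 2 members. The region chr1:128608025-128608485 was at 76.6 and 68.2 in T1 and at 44.7 and 39.9 in T2. The other, chr1:128570028-128571318, was at 49.4 and 41.0 in T1 and at 3.38 and 21.5 in T2. Of the 7 shared regions at Cxcr4, both T1 were above both T2 in 4 (members included) and the reverse held in 1, against the same 14.2% and 40.6%. A further 2 regions there were called in both T2 libraries and neither T1 library. Itga4, the integrin α4 chain, had 1 member, with a gap of 17.6 points. When percentiles were taken among shared regions, 10 of the 103 regions ranked higher in T1 and 0 in T2, against 3.31% and 2.89% of all shared regions. When ranked by fold enrichment, 5 ranked higher in T1 (4.85%, against 1.54% of all shared regions) and 5 in T2 (4.85%, against 5.13%).

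Neutrophil and monocyte effector genes had 3 members among 57 shared regions (5.26%) and 2 regions ranking higher in T2. A region 3876 bp from Il1b, the inflammatory cytokine interleukin 1β, was at 78.4 and 81.3 in T1 and at 54.2 and 55.6 in T2. Mpo, the myeloperoxidase of neutrophil granules, had 1 shared region, at 59.0 and 53.0 in T1 and at 18.2 and 35.1 in T2. Beside it, 1 T1-only and 1 T2-only region were assigned to the same gene. Cyba, a subunit of the phagocyte NADPH oxidase, had a region at 85.3 and 83.1 in T1 and at 65.9 and 65.0 in T2. With percentiles among shared regions, 7 of the 57 ranked higher in T1 (12.3%) and 0 in T2, against 3.31% and 2.89% of all shared regions under that scaling. Without a margin, both T1 were above both T2 in 14 of the 57 regions, a larger share than the 14.2% of all shared regions. The reverse held in 23 of the 57, a share close to the 40.6% of all shared regions. The list's median difference of −4.12 points was below the −3.15 of all shared regions.

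Cytokine signalling and inflammation had 4 members among 134 shared regions (2.99%). Socs3, the feedback inhibitor of JAK-STAT signalling, had a region 4336 bp from the gene at 64.1 and 61.7 in T1 and at 23.4 and 25.2 in T2. Tnfrsf1b, a receptor of tumour necrosis factor, had one at 77.4 and 72.7 in T1 and at 41.7 and 36.7 in T2. Nfkbia, the inhibitor of NF-κB, had one 138 bp from a gene end at 74.7 and 68.0 in T1 and at 42.6 and 44.4 in T2, and Stat5b, a transducer of cytokine signals, one with a gap of 17.5 points. Without a margin, both T1 were above both T2 in 2 of the 9 shared regions at Socs3 and the reverse held in 5, and at Tnfrsf1b these counts were 1 and 2 of 7, against 14.2% and 40.6% of all shared regions.

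RUNX, ETS and chromatin regulators had 5 members among 177 shared regions (2.82%). They were at Elf1, an ETS factor (gap of 31.4 points), Dnmt3a, the de novo DNA methyltransferase (30.1), Ikzf1, the lymphoid regulator Ikaros (16.9), Elf4, whose promoter is shown above (16.5), and Dot1l, the histone H3 lysine 79 methyltransferase (15.1). The Dnmt3a region was at 75.2 and 69.3 in T1 and at 14.5 and 39.2 in T2, and the T2 replicates there lay far apart. Of the 8 shared Dnmt3a regions, it was the only one with both T1 above both T2, and the reverse held in 5, against 14.2% and 40.6% of all shared regions. The Elf4 promoter region was at 84.2 and 79.1 in T1 and at 62.6 and 57.9 in T2.

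Among the lineage lists, dendritic cell genes had 2 members of 62 regions, at Xcr1 and at Flt3, the receptor for FLT3 ligand that is also in the MPP3 and lymphoid lists. In the dendritic list 5 regions ranked higher in T2 (8.06%, against 5.50% of all shared regions). The Flt3 region, chr5:147388798-147389440, was at 67.4 and 67.3 in T1 and at 34.1 and 28.3 in T2, while of all 7 shared Flt3 regions, the member included, both T1 were above both T2 in 3 and the reverse held in 3, against 14.2% and 40.6% of all shared regions. Lymphoid and B lineage genes had 3 members of 101, the others at Ikzf1 and Bach2, and 7 regions ranking higher in T2 (6.93%). Erythroid genes had 2 members of 64, at Tfrc, the transferrin receptor, and Aqp1, a water channel of red cells. In this list 8 regions ranked higher in T2 (12.5%, against 5.50% of all shared regions). That count was 6 (9.38%, against 5.13%) by fold enrichment and 3 (4.69%, against 2.89%) with percentiles among shared regions. With lists of equal length it was 2 of 59 (3.39%, against 2.55%). Megakaryocyte and platelet genes had 2 of 54, at Itgb3 and Rap1b. Single members were found for mast cells (Mitf, of 39 regions), interferon response (Oasl2, of 40), cell cycle (Cdk6, of 87) and granulocyte-monocyte regulators (Irf5, of 93, with a gap of 30.8 points).

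No member was found in 7 lists. Stem cell and multipotency genes, such as Mecom, Meis1 and Gata2, had 0 members among 169 shared regions and 11 regions ranking higher in T2 (6.51%), with a median difference of −6.92 points. BCL11A partners and globin regulators had 0 among 115 and 6 in T2, and AP-1 and immediate early genes 0 among 108 and 5 in T2. The apoptosis, T and NK, stromal and endothelial lists had 0 among 70, 66, 44 and 40. A count of 0, taken as under 3 regions, allows a share of up to 1.78% for the stem cell list, 2.61% for the BCL11A list, 2.78% for the AP-1 list and 6.82% for the stromal list, so under the rule these lists could not be told from the 1.46% of all shared regions. With percentiles among shared regions, where 3.31% of all shared regions ranked higher in T1, the stem cell list had 1 (0.592%), the BCL11A list 1 (0.870%), the AP-1 list 3 (2.78%), the apoptosis list 2 (2.86%), the T and NK list 3 (4.55%), the stromal list 1 (2.27%) and the endothelial list 0.

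**Figure D4:**
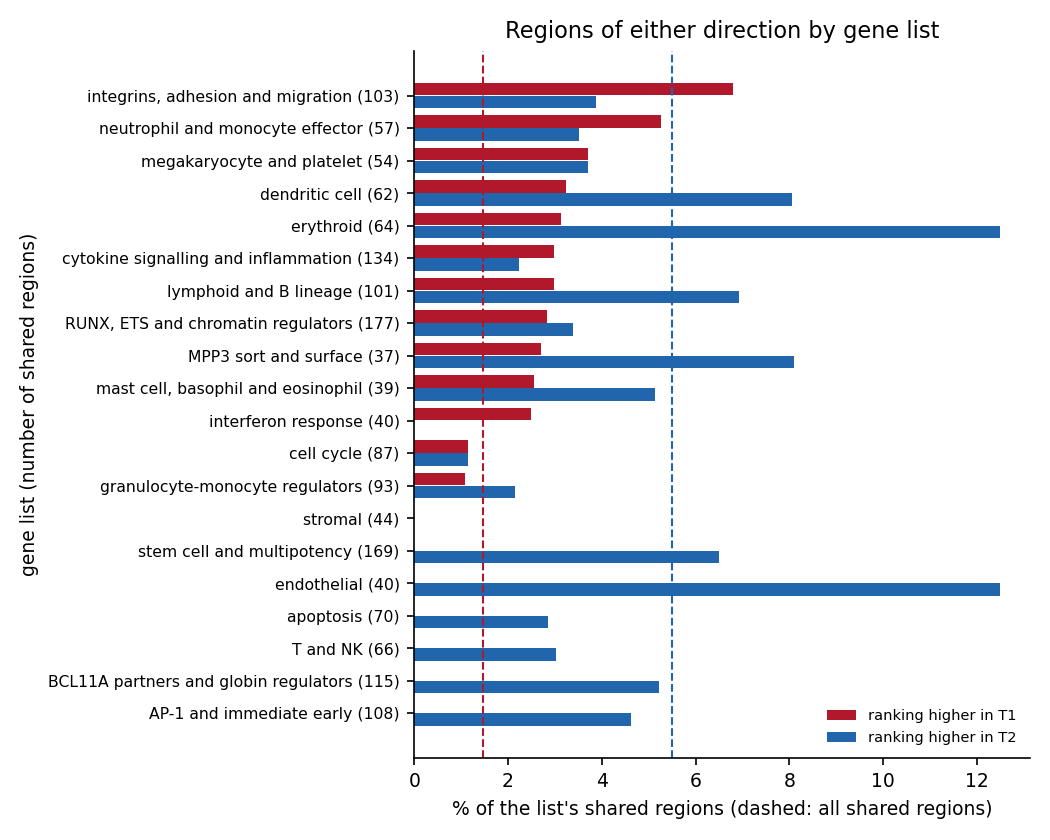
For each gene list, the bars give the percentage of its shared regions that ranked higher in T1 (red) and in T2 (blue), with the number of shared regions in brackets and dashed lines at 1.46% and 5.50% for all shared regions. The adhesion list is highest for T1 at 6.80%, from 7 regions, and 7 lists have no region ranking higher in T1.

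Over all genes, 553 members were assigned to 525 genes and 94 had no gene within 50 kb. Most genes held a single member (498), 26 held 2 and St6gal1 alone held 3. St6gal1 encodes the sialyltransferase that caps N-glycans with α2,6-linked sialic acid, and had 10 shared regions, of which 0 ranked higher in T2 by the rule, and 1 T1-only region. Its members were at 74.3 and 76.8 in T1 and 46.0 and 45.8 in T2 (chr16:23271959-23272682), at 77.5 and 56.3 in T1 and 38.5 and 33.0 in T2 (chr16:23374808-23375455), and at 71.1 and 60.1 in T1 and 45.05 and 42.5 in T2 (chr16:23314511-23315482). The last is at the edge of the rule with a gap of 15.05 points. Of the 525 genes, 112 also had a region ranking higher in T2. The matching share over all genes with shared regions was not counted, so this number cannot be called high or low. By distance, a region ranking higher in T2 lay within 50 kb of 19.8% of members and of 20.4% of all shared regions.

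Few members lay near gene ends. Of the 647, 55 were within 1 kb of a gene end (8.50%, Wilson 95% interval 6.59 to 10.9%), against 13.8% of the regions ranking higher in T2 (12.4 to 15.2%) and 29.1% of all shared regions (28.7 to 29.5%). These intervals cover counting error only, and neighbouring regions are not independent. A region near the top of all lists cannot have a large gap, so regions of like rank were compared too. In a band of like rank, the mean percentiles of 32.7 to 52.9 that hold the middle of the members, the shares were 7.43% of 323 members (5.04 to 10.8%), 13.1% of 1120 regions ranking higher in T2 (11.3 to 15.2%) and 15.2% of all 10106 shared regions (14.5 to 15.9%). Listed start sites, which leave out chromosome 18, gave the same order: 6.13% of 620 members lay within 1 kb of one, against 9.66% and 24.5%. Regions called in 1 group only were also rarely at gene ends, with 4.41% of the T1-only regions and 8.78% of the T2-only regions, those called in both T2 libraries and neither T1 library. The order of the 2 directions was not kept under every scaling, since with percentiles among shared regions the share was 15.8% for T1 and 14.2% for T2. The share for T1 was 15.4% when ranked by fold enrichment, 14.1% with lists of equal length and 14.0% without T2 replicate 1.

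The median distance from a member to the nearest gene end was 20032 bp, against 15344 bp for the regions ranking higher in T2 and 8646 bp for all shared regions. Members were inside a gene in 51.8% and without a gene within 50 kb in 14.5% (12.0 to 17.5%), against 60.8% and 8.86% (8.60 to 9.13%) of all shared regions. In the band of like rank the differences were smaller: 13.9% of members (10.6 to 18.1%) and 10.6% of all shared regions (10.02 to 11.2%) had no gene within 50 kb, with overlapping intervals, and the median distances were 21248 and 13794 bp. The share without a gene was 11.8% for regions ranking higher in T2, 13.3% for T1-only and 13.7% for T2-only regions. Members were narrow, with a median width of 604 bp against 725 bp for all shared regions, and regions ranking higher in T2 were much alike at 626 bp. In the band of like rank the medians were 596 bp for members, 610.5 bp for regions ranking higher in T2 and 621 bp for all shared regions. By chromosome, members made up between 0.971% (chromosome 7, 0.668 to 1.41%) and 2.30% (chromosome 16, 1.66 to 3.18%) of the shared regions, leaving out the Y chromosome with 6 shared regions and 0 members. The X chromosome was near the whole set for members, with 12 of 876 (1.37%), while its share of regions ranking higher in T2 was 2.05%, against 5.50% overall.

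Regions called in both T1 libraries and in neither T2 library lay near a larger share of members than of other shared regions. Such T1-only regions made up 1814 of all 77914 (2.33%), and T2-only regions 5364 (6.88%). Within 50 kb of a T1-only region lay 144 of the 647 members (22.3%, 19.2 to 25.6%), against 15.4% of the regions ranking higher in T2 (14.1 to 16.9%) and 15.8% of all shared regions (15.5 to 16.2%). These intervals cover counting error only, since nearby members can share a T1-only region, and no test was made. Members also had more regions of any kind within 50 kb, with a median of 8 against 7 for each of the other sets. Neighbours were not compared among regions of like rank. The shares for T2-only regions were alike at 38.6%, 37.8% and 36.8%. A further member lay within 50 kb of 62 members (9.58%, 7.55 to 12.1%), against 6.55% of all shared regions with a member that near. With percentiles among shared regions, a T1-only region lay near 21.4% of the 1466 regions ranking higher in T1 and near 16.3% of the 1278 ranking higher in T2. Neighbours come from the same 4 lists, so this is not an independent measurement of T1.

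Of the 24 regions with the largest gaps, 13 had a T1-only region within 50 kb, among them Pag1, Xcr1 and Ifitm6 with 1 each and F10 with 3. Members came as 31 pairs within 50 kb of each other, from 1185 to 47698 bp apart. In 18 pairs both were assigned to the same gene, in 8 neither had a gene and in 5 they were at adjacent genes. The Cxcr4 pair lay 37582 bp apart and the S1pr1 pair 33724 bp apart. Among all shared non-member neighbours of members, both T1 were above both T2 in 16.7% of 2863 and the reverse held in 37.0%, against 14.4% and 37.1% around all shared regions.

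**Figure D5:**
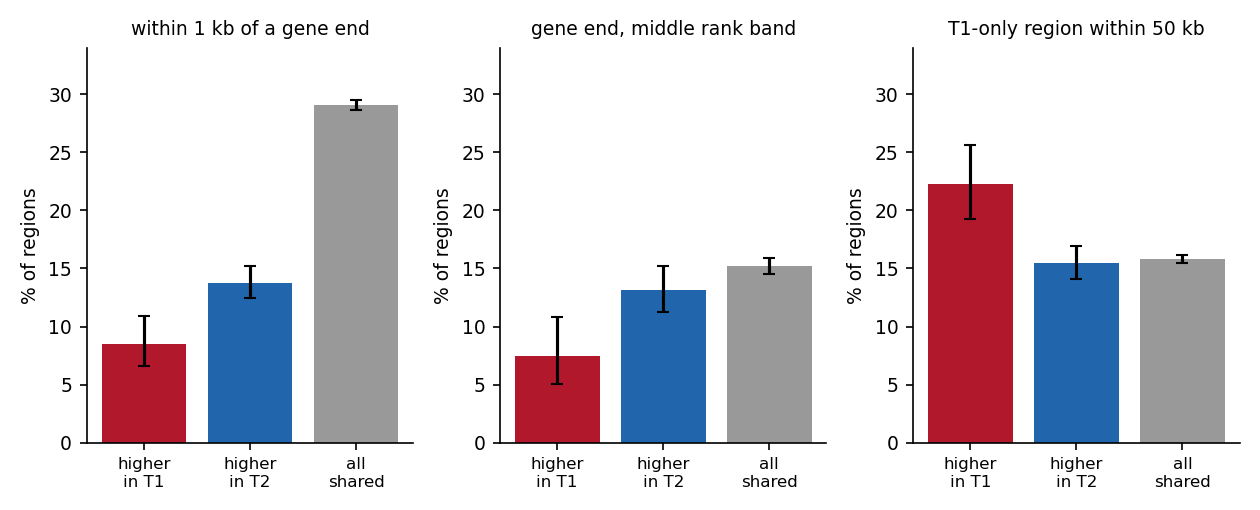
Bars give the percentage of regions within 1 kb of a gene end (left), the same among regions of like rank (middle) and the percentage with a T1-only region within 50 kb (right), for regions ranking higher in T1, higher in T2 and all shared regions, with Wilson 95% intervals. Members are lowest at gene ends (8.50% and 7.43%), an order that turned with percentiles among shared regions (15.8% for T1 and 14.2% for T2), and highest for T1-only neighbours (22.3%).

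The summits of T1 and T2 peaks coincided in most members, with a median distance of 29 bp. They lay at least 200 bp apart in 20 members (3.09%, 2.01 to 4.73%), against 1.19% of the regions ranking higher in T2 (0.831 to 1.71%) and 1.25% of all shared regions (1.15 to 1.36%). In these the weaker T2 peak was not centred where the T1 peak was. The median distance between replicates' summits was 29 bp in T1 and 43 bp in T2 for members. For regions ranking higher in T2 the order was the reverse, with 40 bp in T1 and 22 bp in T2. The part of the members' wider T2 spread in the count was not tested.

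The 15-point threshold cuts through a continuous range. Within 1 point of it lay 64 members, and 71 regions fell short by as little. Just inside were regions at Adk (15.03), Zfand3 (15.04), a predicted gene (15.05), St6gal1 (15.05) and Hspa1b (15.05), the last at 77.6 and 78.2 in T1 and 62.6 and 55.4 in T2. Just outside were, among others, a site without a gene on chromosome 1 (14.91) and a region at Cmc2 (14.86), the latter at 56.7 and 41.5 in T1 and 10.2 and 26.6 in T2.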

How the data were processed

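ATAC-seq peak lists of 4 libraries (T1 and T2, 2 each, grouped by genotype label) were used. The submitters' processing notes name Bowtie2, SAMtools, MACS2 and mm10; for versions and settings, the sources used here give nothing. The authors deposited, per peak, a score, a fold value (a ratio of the summit to local background), −log10 p and −log10 q, and a summit offset. Each file's peak names share 1 library prefix, and every deposited −log10 q was at least 2. None of these is a count, so no model was fitted.

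From these, percentiles (average ranks for ties), gaps, positions and intervals were computed with Python 3.11.15, pandas 2.3.3, numpy 2.4.6 and scipy 1.17.1, and the region rule was tested on simulated lists. Genes came from the RefSeq table of GRCm38.p6 (397 of 400 list symbols matched), and gene ends are both ends of its gene spans, so exons and introns are not given. The promoter table covers 17492 of 21887 coding genes and no start on chromosome 18. Motifs were searched in promoter windows in place of summit windows. The regions and the lists were chosen with earlier results of these data known. Regions were described singly for the 24 largest gaps, for genes with at least 3 members, for up to 4 members of each list by gap (where the adhesion and regulator lists have more, the rest were added after their values were seen), and for up to 5 on each side of the threshold; predicted genes were not named, and some items are not reported here. Regions at Mcf2l and Atp11a, and the separate mention of the second Dock8 region, were added after their values were seen.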

Additional observations from a re-analysis of the deposited data

How the results depend on the processing

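The count of regions ranking higher in T1 was 647 and followed the threshold: 1168 at 10 points, 362 at 20 and 199 at 25, against 4853, 1168 and 548 for T2, with 12.3%, 6.35% and 5.03% of the T1 regions within 1 kb of a gene end. Percentiles among shared regions gave 1466 for T1, 1278 for T2 and 15.8% at gene ends, and lists of equal length 1363, 1042 and 14.1%; fold enrichment moved the gene-end share to 15.4%. Gene ends of 500 bp and 2 kb gave 6.18% and 12.1%, against 26.5% and 33.3% of all shared regions. Leaving out 1 library at a time gave 1046 to 1814 regions for T1, 3894 to 6798 for T2 and 8.29 to 14.0% at gene ends, since 1 library then decides for its group; the lowest T1 count came without T1 replicate 1 and the highest without T2 replicate 1, and all 4 raised the counts by over 1.5 times. Ranking by −log10 p, peaks of −log10 q of at least 5, windows around summits and the widest peak per region gave 601 to 660 for T1. The 24 largest gaps stayed at 15 points or more under each setting that gave a value, except Zfp239 under fold enrichment (5.78), but only 8 of them had a shared region at equal list length and 16 at −log10 q of at least 5. The rank band, the lists and the neighbours under other scalings were added after seeing the data. No paired analysis was possible because the results come from a rank rule and no test, and the labels do not tie replicate numbers across groups. Motifs at summits were not run. Depth is unknown, so no result can be tied to it.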
